A study of Mus musculus with 21 samples.

Results

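Spinal cords of 21-day-old (P21) heterozygous conditional knockout mice (cHET) were compared with those of control mice of the same age. The 8 libraries were all those labelled P21 cHET or P21 control, 4 of each, out of 21 in the series. The study asked what loss of TDP-43, the RNA-binding protein encoded by Tardbp, does when it is restricted to oligodendrocytes. Controls carried Tardbp fl/fl and no Cre. The cHET mice carried Cnp-Cre and Tardbp-fl/+. Full knockouts (cKO, with Cnp-Cre and Tardbp fl/fl), 4 at P21, shared the fit. Mice labelled P60 were a separate set of animals, in which sex and age in days differed between genotypes. They were 3 female controls of 74 days and 3 male cHET mice of 60 to 65 days. All mice were C57BL/6, each library had its own mouse number, and both P21 groups held 2 females and 2 males. Cnp-Cre is a knock-in in which Cre replaces coding sequence of 1 Cnp allele, so the cHET mice differ from controls in Cre, in the Cnp allele and in Tardbp, and these cannot be told apart. The floxed allele is also present in every control mouse.

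Oligodendrocytes wrap axons in myelin, a stack of lipid-rich membrane held together by proteins such as myelin basic protein, and they supply axons with metabolites. TDP-43 binds RNA in the nucleus, where it controls splicing and RNA stability, and it limits the level of its own transcript. Its loss from the nucleus is a hallmark of amyotrophic lateral sclerosis (ALS). Cnp encodes an enzyme of the cytoplasmic channels of myelin and is active throughout the oligodendrocyte lineage and in Schwann cells.

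The deposited values are normalized scaled reads per base. Of 25127 listed genes, 17989 reached 5 in at least 4 of the 12 P21 libraries and were tested as log2(value + 0.5), so fold changes of low genes are understated. The values were scaled by the authors to like sums, so the number of reads is unknown. Controls had 20522 to 20674 genes above 0 and cHET libraries 20366 to 20427, without overlap. Genes of the mitochondrial genome took 6.81% ± 0.23 (SD, n = 4) of the values in controls and 6.73% ± 0.54 in cHET (2-sided exact permutation test, p = 0.857; the smallest p that 4 against 4 allows is 0.0286).

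Genes of spinal cord position were present at like levels in all 8 libraries: the 12 members of that list summed to 18338 to 19718 in controls and 17916 to 20744 in cHET. One cHET library stood apart: forebrain transcripts were present in cHET 1, where the cortical factor Tbr1 was at 172, against 26.5 to 65.2 in the other 7 libraries. Emx1, a further cortical factor, was at 46.3 there and at most 3.53 elsewhere. In the same library, labelled female, the Y-linked gene Ddx3y was at 123, against 17.0 to 44.1 in the other 3 females and 2437 to 2602 in the 4 males. The choroid plexus gene Ttr was at 9845 in control 2 and 1622 in cHET 1, and at most 133 elsewhere. The most caudal Hox gene measured, Hoxc13, was at 4.08 in control 2, 29.3 in cHET 1 and 76.5 to 214 in the other 6.

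Control 4, cHET 4 and cKO 4, all labelled female, deviated together from their own group means. Across 13768 genes with a mean of at least 50, the deviations of cHET 4 correlated with those of control 4 (Pearson r = 0.38) and of cKO 4 (0.50), and those of control 4 with cKO 4 (0.33), while no other pair from different genotypes passed 0.26. Genes share these libraries, so the values are a description. Glra1, a glycine receptor subunit of spinal neurons, was at 3013 in control 4 and 1359 in cHET 4, against 5853 to 6744 in the other controls and 4249 to 5511 in the other cHET mice. Mouse numbers in the labels were 272, 275, 276 and 716 for cHET 1 to 4 and 715, 723, 854 and 1142 for controls, and what they mark is not stated. Thus 3 cHET mice carry numbers far from every control, and a litter or a date behind the number cannot be told apart from genotype.

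Tardbp (ENSMUSG00000041459; GRCm38 chromosome 4, 148612382 to 148627019) was not measurably lower in whole cord. It was 2198, 2283, 2415 and 2155 in controls 1 to 4 and 2068, 2236, 2030 and 2231 in cHET 1 to 4. The groups overlapped, and the log2 difference was -0.08 ± 0.06 (SE; 95% interval -0.21 to 0.05; limma adjusted p = 0.81). Cells outside the Cnp-Cre lineage keep both alleles, and a value for the whole gene does not resolve the floxed exon.

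Cnp (chromosome 11, 100574904 to 100591729) fell in every cHET mouse. It was 84306, 87736, 76936 and 88022 in controls and 46589, 46724, 44181 and 49396 in cHET. The highest cHET value was below the lowest control value by a wide margin. The mean was 55.5% of the control mean, a log2 change of -0.85 ± 0.07 (limma adjusted p = 9.5e-05). It passed in every alternative fit, with a change of -0.91 to -0.82. Genes beside the engineered loci were examined as well. Of 115 tested genes within 2 Mb of Cnp, 0 passed, 4 were higher and 4 lower at an unadjusted p under 0.05, and the smallest limma p was that of P3h4, at 0.34 without overlap. Of 60 genes within 2 Mb of Tardbp 0 passed, 3 were higher and 1 lower at an unadjusted p under 0.05. The shares over all tested genes were 4.07% higher and 3.06% lower.

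**Figure D1:**
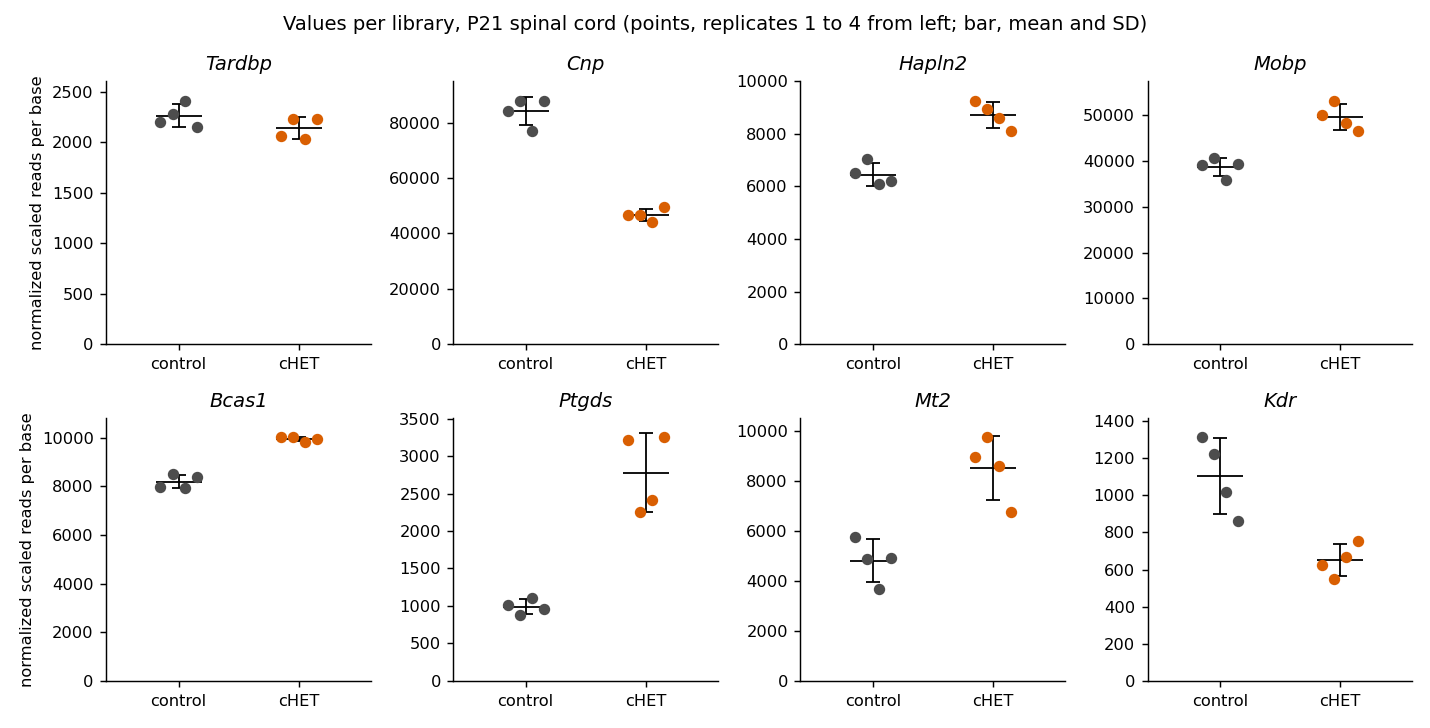
Normalized scaled reads per base (vertical axes from 0, scales differ) of 8 genes in the 4 control and 4 cHET libraries at P21; points are single mice, bars the mean and SD. Tardbp overlapped between groups, whereas the other 7 genes did not. Among cHET libraries, cHET 4 was the lowest for Hapln2, Mobp and Mt2 and the highest for Cnp and Kdr.

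Few genes differed beyond the spread between mice. By limma with Benjamini-Hochberg adjustment over all genes, 2 of 17989 tested genes passed at an adjusted p under 0.05 (0.0111%), Cnp and Hapln2. At an unadjusted p under 0.05, 733 genes were higher and 551 lower in cHET. For 562 genes (3.12%) every cHET library lay above every control library, and for 360 (2%) every one lay below. The median change over all genes was 0.00. The authors' deposited table gives a q under 0.05 to 35 of 18099 genes (0.193%), 26 higher and 9 lower in cHET, both genes called here among them. Of those 35 genes 34 were tested here, and all 34 had an unadjusted limma p under 0.05. For 33 of the 34 the groups did not overlap. These genes were chosen by q on the same libraries, so both counts follow largely from that choice and are no second test. The gene without a value here is Vstm4, and for Nid2 the deposited mean differs from that of the per-library values.

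Hapln2 (chromosome 3, 88021750 to 88027583) rose in cHET cord. It encodes the link protein Bral1, which holds hyaluronan and proteoglycans together at nodes of Ranvier, the gaps between myelin segments. Controls were at 6515, 7028, 6083 and 6193 and cHET mice at 9271, 8942, 8605 and 8095, so the groups did not overlap. The rise was 1.35-fold (0.44 ± 0.06, adjusted p = 0.039). This call rests close to the threshold: it was lost in 12 of 24 alternatives, among them the fits without control 1, 3 or 4 or cHET 1, 2 or 3 (adjusted p = 0.070 to 0.26), while the change stayed between 0.40 and 0.48. The q in the authors' deposited table was 7.0e-08.

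**Figure D2:**
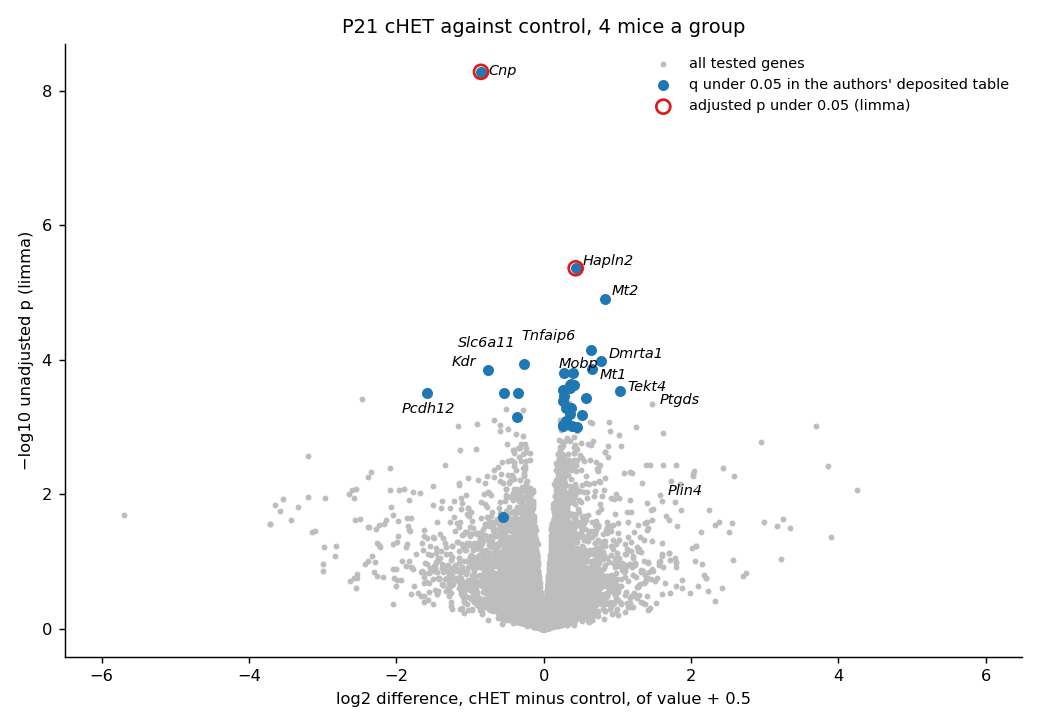
Each point is 1 of 17989 genes at P21; the horizontal axis is the log2 difference between cHET and control (value + 0.5) and the vertical axis the −log10 unadjusted limma p. Cnp and Hapln2 are ringed as the 2 genes past an adjusted p of 0.05, and blue points have q under 0.05 in the authors' deposited table.

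Most genes of compact myelin and of mature oligodendrocytes had small positive changes, few of them past a test. Of 10 compact myelin proteins 9 had a positive change, with a median of 0.13 against 0.00 over all genes; 0 passed, and 2 were higher in all cHET libraries. Of 19 tested genes of mature oligodendrocytes 16 were positive with a median of 0.16. In this list 8 were above every control and 1 below, and 5 were higher and 1 lower at an unadjusted p under 0.05, with 0 past the adjusted threshold. Of all tested genes, 3.12% lay above every control and 2% below. At an unadjusted p under 0.05, 4.07% of all genes were higher and 3.06% lower. With a term shared by control 4, cHET 4 and cKO 4, chosen after seeing the data, 5 of 10 compact myelin genes and 7 of 19 mature oligodendrocyte genes were higher at an unadjusted p under 0.05, against 5.34% of all genes in that fit. These lists were chosen with earlier results of the same data known. In bulk tissue, more cells of a type and more RNA per cell cannot be told apart.

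Among compact myelin genes, Mobp (chromosome 9, 120149707 to 120181484), whose product binds the cytoplasmic faces of compact myelin, had the largest difference. It was 39248, 40658, 35964 and 39301 in controls and 50042, 53242, 48323 and 46597 in cHET mice. All cHET values exceeded all control values (0.35 ± 0.07, limma adjusted p = 0.28), and in the authors' deposited table the q was 4.4e-03. Gpm6b, a membrane glycoprotein, showed a smaller difference without overlap (0.13 ± 0.05). The main structural gene Mbp was at 0.18 ± 0.10 and Mal at 0.19, with overlapping groups, and Opalin at -0.0048. After quantile normalization 7 of the 10 genes were positive, with a median of 0.05.

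In noncompact myelin and the cytoskeleton, 9 of 15 genes were positive and 6 negative, and 1 (Cnp) passed. At an unadjusted p under 0.05, 3 were higher, where 4.07% of all genes were. With the term shared by control 4, cHET 4 and cKO 4, 6 were higher, where 5.34% of all genes were. Bcas1, a marker of oligodendrocytes at the start of myelination, was 7987, 8489, 7926 and 8360 in controls and 10004, 10014, 9805 and 9941 in cHET. The spread within each group was small beside the gap (0.28 ± 0.06, adjusted p = 0.29; q = 6.7e-03 in the authors' deposited table). Sept8 and Sept7, septins of myelin, lay above all controls as well (0.14 and 0.13). Mag and Mog, adhesion and surface proteins of myelin, were at 0.08 and 0.11 and overlapped.

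At contacts with axons and other glia, 5 of 12 tested genes were higher at an unadjusted p under 0.05 and 0 lower. The shares over all genes were 4.07% higher and 3.06% lower. The 5 genes were Hapln2, already called above, the connexins Gjb1, Gjc3 and Gjb6 and the adhesion molecule Cntn2. With the term shared by control 4, cHET 4 and cKO 4, 5 genes of the list were higher and 3 lower. In that fit 5.34% of all genes were higher and 4.86% lower. Gjb1, connexin 32 of oligodendrocyte gap junctions, was 4613, 4721, 4644 and 5070 in controls and 5863, 5518, 5294 and 5295 in cHET (0.21 ± 0.07, adjusted p = 0.57). Its groups did not overlap. Gjb6, the astrocyte connexin 30, did overlap (0.34 ± 0.10).

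Among mature oligodendrocyte genes the largest difference was that of Ptgds (chromosome 2, 25466709 to 25470046), the enzyme that makes prostaglandin D2. It was 1009, 876, 1111 and 964 in controls and 3211, 2248, 2410 and 3251 in cHET. The lowest cHET value was far above the highest control value, and the fitted ratio was 2.78 (1.47 ± 0.32). It did not pass in the joint limma fit (adjusted p = 0.31), in which cKO values ran from 12475 to 51958. It passed in the fit of the 8 libraries alone (limma adjusted p = 0.0012), with array weights (0.034) and without control 4, cHET 4 and cKO 4 (0.0055). Without cHET 1 and control 2 it did not pass (0.99), while the change was still 1.34. Over the 24 alternatives the change was 1.34 to 1.57. Its q in the authors' deposited table was 0.097. Meninges and choroid plexus also express Ptgds: the 12 meningeal genes summed to 2594 to 3102 in controls and 2705 to 3445 in cHET, and cHET 1 had the highest sum and Ttr at 1622, while cHET 4, with 3251 of Ptgds, had a sum of 2705 and Ttr at 0. Their part in the difference was not tested.

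Apod, a lipid-binding apolipoprotein, was tight within both groups, at 14797, 14541, 14484 and 15053 in controls and 18404, 18166, 17839 and 18005 in cHET (0.30 ± 0.07, adjusted p = 0.32; q = 0.016 in the authors' deposited table). Nkx6-2, a homeodomain factor of myelinating oligodendrocytes, was 2768, 2936, 2666 and 2996 in controls and 3794, 3821, 3757 and 3352 in cHET (0.37 ± 0.08). Neither gene overlapped between the groups. Anxa5, Klk6, Aspa, Car2 and Ppp1r14a also lay above every control, by 0.14 to 0.32. Il33, a nuclear alarmin of mature oligodendrocytes, ran the other way, with every cHET value (144 to 165) below every control value (187 to 225; -0.40 ± 0.13).

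Lists of earlier stages of the lineage had medians near 0 at P21. Of 14 oligodendrocyte precursor genes 7 were positive (median 0.00), and of 10 genes of newly formed oligodendrocytes 4 were positive (median -0.03), Bcas1 being the highest. At P60, 9 of those 10 were positive (median 0.16), 4 of them higher at an unadjusted p under 0.05. The share of all genes higher there was 3.53%. Pdgfra, the growth factor receptor of precursors, was at -0.01, and Gpr17, of committed precursors, at -0.14. The Schwann cell list had 5 of 10 positive.

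**Figure D3:**
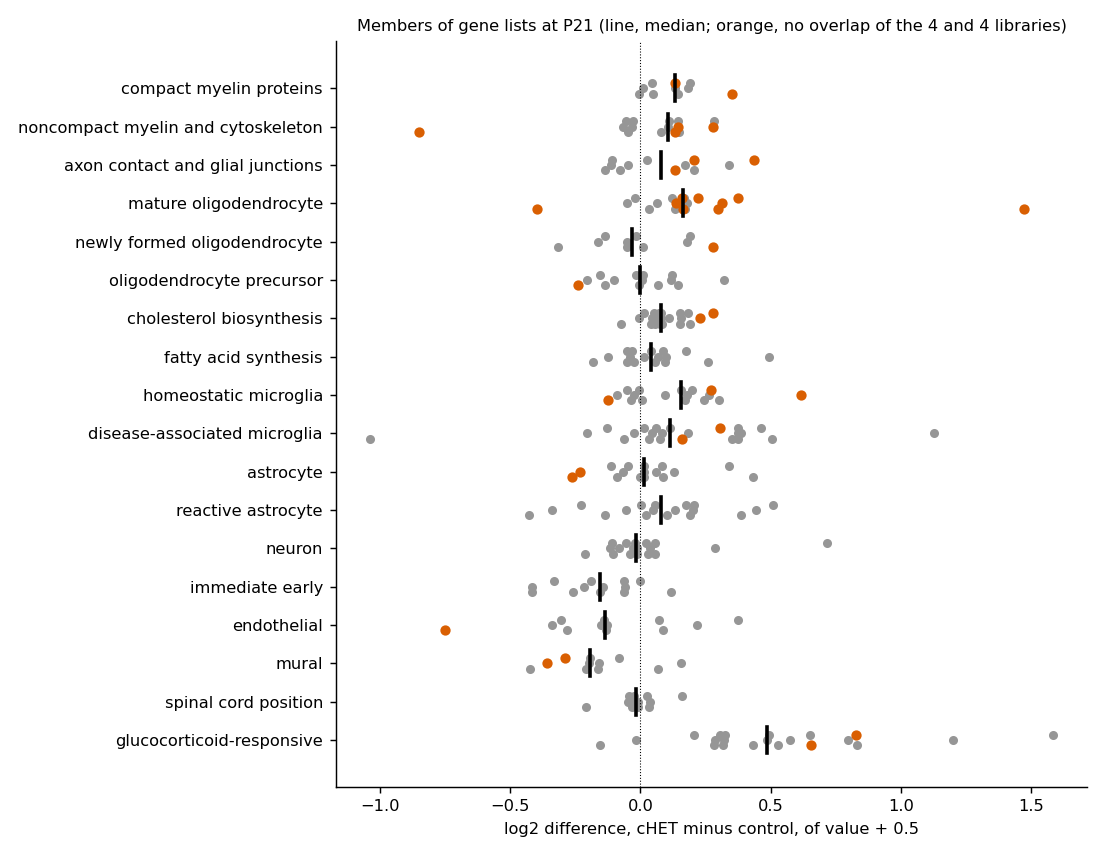
Log2 differences between cHET and control at P21 (horizontal axis) for the tested members of 18 gene lists (rows); lines are medians and orange points genes whose 4 cHET and 4 control libraries did not overlap. Mature oligodendrocyte genes have a median of 0.16 with Il33 lowest at -0.40, and mural genes a median of -0.19.

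The upstream sequences of Hapln2 and Mobp are shown because Hapln2 is the called gene that rose and Mobp is 1 of the 4 genes that passed in the authors' deposited table at both ages. Bases come from RefSeq on GRCm38.p6, each printed 5′ to 3′ on the gene's strand and ending before the first annotated GENCODE M21 transcript start. Capitals mark matches on either strand to ACAAAG, a sequence that SOX and TCF factors can recognise.

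Mobp, chr9:120149492-120149706, plus strand: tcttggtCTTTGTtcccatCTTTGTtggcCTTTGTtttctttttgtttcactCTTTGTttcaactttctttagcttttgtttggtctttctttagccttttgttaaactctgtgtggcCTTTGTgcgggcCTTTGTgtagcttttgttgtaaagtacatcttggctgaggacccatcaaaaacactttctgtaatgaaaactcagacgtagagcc

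Hapln2, chr3:88027584-88027761, minus strand: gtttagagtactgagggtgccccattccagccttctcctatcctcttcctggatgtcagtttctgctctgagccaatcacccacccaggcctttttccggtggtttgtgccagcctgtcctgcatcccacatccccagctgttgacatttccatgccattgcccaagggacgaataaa

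The 215 bases of Mobp hold 6 matches, all as CTTTGT on the printed strand and none overlapping. Among 32851 promoters of the same length, 14.5% hold at least 1 match and 1 promoter, that of Mobp, holds 6 or more. The 178 bases of Hapln2 hold 0 matches, and 12.2% of promoters of that length hold at least 1. The motif was chosen after the values were seen, and a match describes letters only.

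Lipid synthesis genes moved little. Of 21 genes of cholesterol synthesis 19 were positive, with a median of 0.08, and 0 passed. At an unadjusted p under 0.05, 4 were higher and 0 lower, where 4.07% and 3.06% of all genes were. Tm7sf2, a sterol reductase, was 1300, 1423, 1578 and 1590 in controls and 1931, 1792, 1657 and 1760 in cHET (0.28 ± 0.08). Pmvk, phosphomevalonate kinase, was at 0.23 ± 0.08, also without overlap. Hmgcs1, an early enzyme of the pathway, was at 0.07 ± 0.09 and overlapped. The pathway's per-library medians spread as widely within groups as between them, from -0.18 in control 1 to 0.11 in control 4 and from -0.07 in cHET 3 to 0.22 in cHET 1. Without cHET 1, 16 of 21 were positive with a median of 0.03. Of 17 fatty acid synthesis genes 10 were positive (median 0.04). Slc16a1, the lactate transporter MCT1 of oligodendrocytes and endothelium, was lower, at 4982, 4722, 4746 and 4653 in controls and 3701, 3339, 3746 and 4287 in cHET. The groups did not overlap (-0.35 ± 0.07, adjusted p = 0.28; q = 0.012 in the authors' deposited table).

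Most listed genes of blood vessels had negative changes in cHET, but 0 of 12 endothelial and 0 of 11 mural genes passed by limma. Of the 12 endothelial genes 8 were negative (median -0.14), and 4 were lower and 1 higher at an unadjusted p under 0.05, where 3.06% of all genes were lower. Kdr, the main receptor for vascular endothelial growth factor, was 1313, 1223, 1020 and 860 in controls and 626, 552, 670 and 755 in cHET. All cHET values lay below all controls (-0.75 ± 0.15, adjusted p = 0.28; q = 0.012 in the authors' deposited table). It was the only member of the list without overlap. Outside the list, and named for their values, Ets1, a transcription factor of endothelium, lay below every control (-0.54 ± 0.11), as did Pcdh12, an endothelial protocadherin (-1.58 ± 0.33), at 24.2 to 40.7 in cHET 1 to 3 and 90.2 in cHET 4. Cdh5, the endothelial cadherin, and Flt1 and Tek, receptors of vessel growth, were at -0.28, -0.34 and -0.31 with overlap. Slc2a1, the glucose transporter of the blood-brain barrier, was higher (0.38 ± 0.12), and Pecam1, on all endothelium, was at -0.15.

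Of 11 mural genes, which mark pericytes and smooth muscle, 9 were negative (median -0.19), and 3 were lower and 0 higher at an unadjusted p under 0.05. Of all genes 3.06% were lower and 4.07% higher. Notch3, the Notch receptor of mural cells, was 2139, 2457, 2042 and 1931 in controls and 1716, 1625, 1773 and 1543 in cHET (-0.36 ± 0.08, adjusted p = 0.35). Abcc9, a potassium channel subunit of pericytes, lay below every control too (-0.29 ± 0.11). The mural genes summed to 9603 to 10676 in controls and 8461 to 9725 in cHET, so the sums overlapped. Their median deviation from the control mean was 0.00, 0.08, 0.05 and -0.14 in controls 1 to 4. In cHET 1 to 4 it was -0.04, -0.27, -0.03 and -0.18. The summed endothelial level was 8989 in control 4 and 9475 in cHET 4, against 11367 to 12087 in the other controls and 10879 to 11233 in the other cHET mice, so library 4 of each group was the lowest. Without control 4, cHET 4 and cKO 4, 7 of 12 endothelial genes were lower at an unadjusted p under 0.05 (median -0.25), and Kdr passed (-0.94, limma adjusted p = 0.014). Without cHET 1 and control 2, 1 endothelial gene was lower at an unadjusted p under 0.05, and 3 mural genes were lower in both of these fits. Of all genes 4.22% were lower in the former fit and 1.95% in the latter.

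Astrocyte genes had no common direction: 9 of 16 were positive (median 0.01). Slc6a11, the GABA transporter GAT-3 of astrocytes, was 17214, 16327, 15540 and 16424 in controls and 13276, 13671, 13926 and 13634 in cHET. Every cHET mouse was below every control (-0.26 ± 0.05, adjusted p = 0.28; q = 0.015 in the authors' deposited table). Slc1a2, the main glutamate transporter, was lower without overlap too (-0.23), while Glul, glutamine synthetase, was higher with overlap (0.43 ± 0.15). Gfap, the intermediate filament of astrocytes, was at 0.13 ± 0.07. Of 18 reactive astrocyte genes 13 were positive (median 0.08), and 3 were higher at an unadjusted p under 0.05, Hspb1 (0.51), Vim (0.20) and Cd44 (0.18). Of all genes 4.07% were higher at that threshold.

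The metallothioneins Mt1 and Mt2, which bind zinc and copper and lie next to each other on chromosome 8, were both higher. Mt2 was 5771, 4879, 3681 and 4919 in controls and 8964, 9743, 8599 and 6738 in cHET. The groups did not overlap, the ratio was 1.77 (0.83 ± 0.13), and the adjusted p of 0.074 was the smallest of those that did not pass. Mt1 was 13483, 12122, 9066 and 12109 in controls and 18645, 18824, 18728 and 16818 in cHET (0.66 ± 0.13, adjusted p = 0.28). For both genes cHET 4 was the cHET library nearest to controls. In the authors' deposited table Mt2 had a q of 2.3e-04 and Mt1 of 0.015.

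Glucocorticoids, the stress hormones of the adrenal cortex, induce metallothioneins and a set of other genes, and 21 such genes were set side by side in a list written after values had been seen. It therefore carries no test. Of the 21, 19 were positive with a median of 0.49. Plin4, a lipid droplet coat protein, was 160, 116, 85.9 and 126 in controls and 522, 834, 490 and 77.5 in cHET. Sgk1, a kinase induced by corticosteroids, was 3095, 1451, 846 and 1036 in controls and 5384, 3672, 3266 and 1698 in cHET. Hif3a was 254, 249, 159 and 163 in controls and 426, 536, 363 and 181 in cHET. For all 3, cHET 1 to 3 exceeded every control, while cHET 4 lay within the control range for Sgk1 and Hif3a and below it for Plin4.

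Over the whole list the median deviation from the control mean was 0.69, 0.70, 0.48 and 0.06 in cHET 1 to 4 and 0.34, 0.05, -0.34 and -0.17 in controls 1 to 4. In cKO mice, numbered 270, 277, 280 and 1174, it was 1.10, 1.21, 0.58 and 1.09. Clock genes, which follow the time of day, were near 0 (8 of 15 positive, median 0.05). Without cHET 4, limma called 26 of 17913 tested genes, 22 higher and 4 lower. Of these 24 were distinct, since 2 were unnamed identifiers that repeat the values of Arrdc2 and Mast3. Of the 26, 5 were on the glucocorticoid list and 9 in the authors' deposited table at q under 0.05. That list was written after values had been seen and that table rests on the same libraries, so neither count is a test. Plin4 was then at 2.32 ± 0.26 (adjusted p = 5.0e-03) and Hif3a at 1.11 ± 0.19 (adjusted p = 0.043). The part of hormone level, handling or cohort in these values was not tested.

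**Figure D4:**
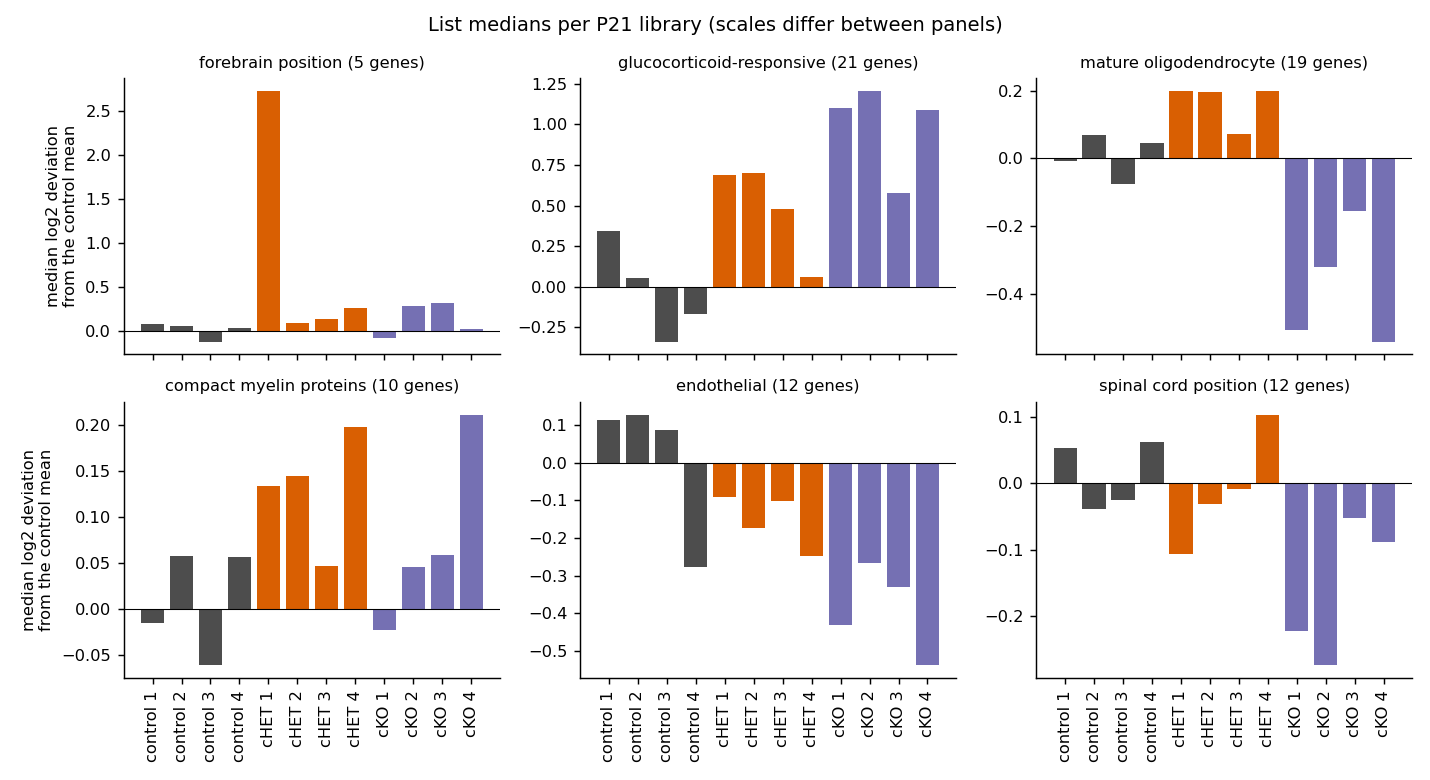
Median log2 deviation from the mean of the 4 controls (vertical axes, scales differ) of the members of 6 gene lists in each P21 library; grey bars are control, orange cHET and purple cKO. Forebrain genes were high in cHET 1 alone, and glucocorticoid-responsive genes were at 0.48 to 0.70 in cHET 1 to 3 and 0.06 in cHET 4.

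No microglial gene of either list passed by limma (0 of 17 and 0 of 23), where 0.0111% of all genes passed. At an unadjusted p under 0.05, 4.07% of all genes were higher and 3.06% lower. Of 17 genes of homeostatic microglia 11 were positive (median 0.16), 4 higher and 1 lower at an unadjusted p under 0.05. C1qa, C1qb and C1qc, the subunits of complement C1q, were at 0.27, 0.24 and 0.26. Olfml3, a secreted microglial protein, was 163, 155, 228 and 295 in controls and 296, 298, 321 and 334 in cHET (0.62 ± 0.20, adjusted p = 0.52), just without overlap. The receptors P2ry12 and Cx3cr1 were at -0.09 and -0.04. Of 23 genes of disease-associated microglia 18 were positive (median 0.11), and 3 were higher at an unadjusted p under 0.05, the adaptor Tyrobp (0.35), the protease Ctsz (0.30) and the integrin Itgax (1.13). Itgax rested on values of 2.39 to 11.2 in controls and 9.58 to 17.2 in cHET. Of 20 interferon response genes 16 were positive (median 0.13) and 0 had an unadjusted p under 0.05, with list medians from -0.31 to 0.67 in single controls. Leukocyte genes were low in both groups, with sums over 10 genes of 218 to 307 in controls and 231 to 320 in cHET.

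Neuronal genes did not differ detectably. Of 18, 7 were positive (median -0.02), and 0 had an unadjusted p under 0.05. The largest value, that of the cortical vesicular transporter Slc17a7 (0.72), and that of Camk2a (0.29) stood beside the forebrain transcripts of cHET 1, where Camk2a was at 4867 against 2433 to 2791 in the other 7 libraries. Without cHET 1 the neuronal median was -0.03. Of 13 immediate early genes 1 was positive (median -0.16), and Btg2 (-0.42 ± 0.13) and Npas4 (-0.42 ± 0.17) were lower at an unadjusted p under 0.05. The share of all genes lower at that threshold was 3.06%. Per library, the median deviation of this list from the control mean was 0.19, 0.05, -0.29 and 0.03 in controls 1 to 4. In cHET 1 to 4 it was 0.06, -0.49, -0.31 and 0.12, so the groups overlapped. Of 20 tested genes mutated in or linked to ALS and frontotemporal dementia 9 were positive, 0 had an unadjusted p under 0.05 in either direction, and changes ran from -0.10 to 0.14. Chaperones of the endoplasmic reticulum were positive for 2 of 12 (median -0.09), also with 0 at an unadjusted p under 0.05. Without control 4, cHET 4 and cKO 4, 0 of 12 were positive (median -0.19). In that fit 4 were lower at an unadjusted p under 0.05, where 4.22% of all genes were. With the term shared by these 3 libraries, 0 were lower.

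Several genes that were higher in cHET were lower in cKO cord. The P21 cKO comparison uses the same controls, so values are only set side by side. In cKO against control 26.9% of genes passed. Hapln2 was at 0.44 in cHET and -0.78 in cKO, Gjb1 at 0.21 and -1.24, Apod at 0.30 and -0.84, Klk6 at 0.32 and -3.46, and Pkp4, a plakophilin of cell junctions, at 0.28 and -0.37. Cholesterol synthesis had a median of 0.08 in cHET and -0.75 in cKO. Other genes had the same sign in both: Ptgds was at 1.47 and 4.34, Mt2 at 0.83 and 1.89, Slc6a11 at -0.26 and -0.41 and Kdr at -0.75 and -1.05. Mobp and Bcas1 were at 0.35 and 0.27 and at 0.28 and 0.10. Disease-associated microglia had a median of 0.11 in cHET and 3.15 in cKO.

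The cHET mice of about 60 days and their controls share no library with those of P21. They were prepared with another kit, the controls were female and 74 days old, and the cHET mice male and 60 to 65 days old, so sex and age in days cannot be told apart from genotype there. At P60 limma called 3 of 16833 genes (0.0178%): Cnp (-0.78 ± 0.06, adjusted p = 1.1e-03), Bcas1 (0.53 ± 0.06, adjusted p = 0.026) and Hectd4 (0.58 ± 0.07, adjusted p = 0.026), which was at -0.12 at P21. At an unadjusted p under 0.05, 3.53% of genes were higher and 1.88% lower. At P60 the authors' deposited table has a q under 0.05 for 14 of 16923 genes (0.0827%). Of these, 4 were also under 0.05 at P21: Cnp, Mobp, Bcas1 and Cldn14, a claudin of tight junctions. They are 11.4% of the P21 list and 28.6% of the P60 list.

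Bcas1 at P60 was 5059, 5692 and 5127 in controls and 7925, 7672 and 7354 in cHET, without overlap. Mobp was 9750, 10021 and 10350 in controls and 13449, 13904 and 12084 in cHET (0.39 ± 0.07, limma adjusted p = 0.30), again without overlap. Cldn14 was at 0.42 at P21 and 0.71 at P60. Hapln2 was 1353, 1456 and 1409 in P60 controls and 1597, 1659 and 1346 in cHET mice, so the groups overlapped (0.12 ± 0.11). Ptgds was at 0.23 ± 0.15 at P60.

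Of the 34 genes of the authors' P21 list with values at both ages, 29 had the same sign at P60 by limma, and 13 of these had an unadjusted p under 0.05 there. For 30 of the 34 the change was smaller at P60, and the genes had been chosen for their P21 values. Compact myelin genes were positive for 9 of 10 at P60 (median 0.28), with 6 higher at an unadjusted p under 0.05. The share of all genes higher at P60 was 3.53%. Endothelial genes were positive for 5 of 12 (median -0.04), and Kdr was at -0.22 ± 0.11. A test of the difference between the ages in 1 fit of 21 libraries called 0 of 18695 genes (0%), with 542 larger and 412 smaller at P60 at an unadjusted p under 0.05. The 5 smallest p were those of Nnt, Polr3e, Foxp2, 9930012K11Rik and Uts2 (adjusted p = 0.48 to 0.93). Foxp2, a forkhead transcription factor, was at 0.63 at P21 and -0.49 at P60. Nnt has 2 identifiers that can share reads, so its value is uncertain.

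**Figure D5:**
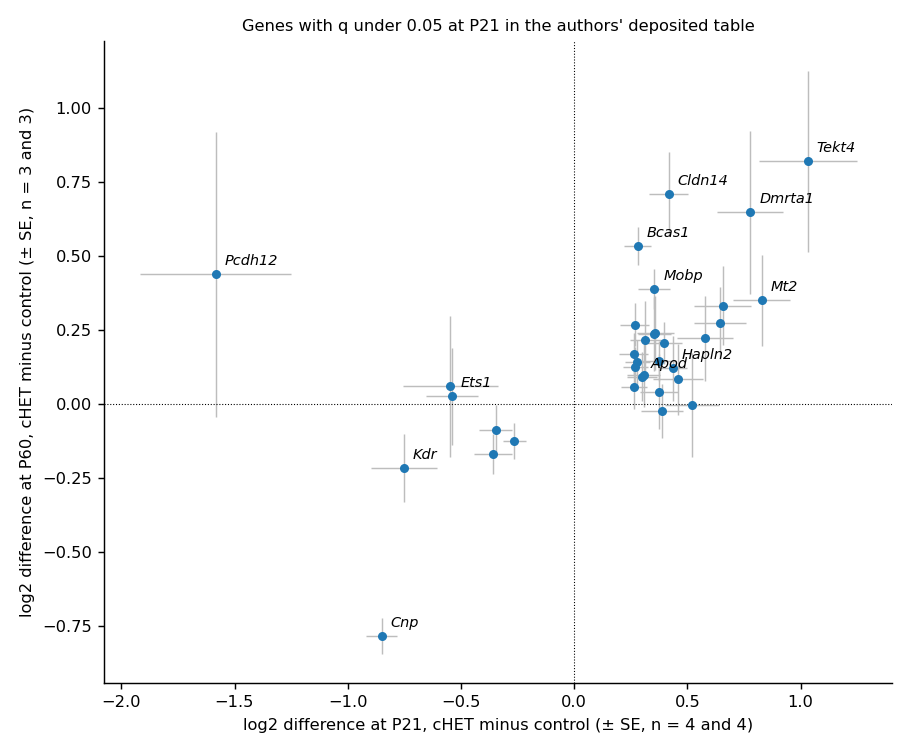
Log2 differences between cHET and control at P21 (horizontal axis) and P60 (vertical axis), each ± SE, for 34 genes with q under 0.05 at P21 in the authors' deposited table. Cnp lies low at both ages, Mobp, Bcas1 and Cldn14 lie high at both, and Pcdh12 was at -1.58 and 0.44.

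Male and female mice did not differ detectably in the cHET change at P21. The test of male minus female called 0 of 17989 genes (0%), with 250 larger in males and 252 larger in females at an unadjusted p under 0.05, and 2 mice stood behind each sex of each group. The smallest p was that of Rad54l, a DNA repair helicase, which was at -0.86 in females and 1.81 in males (adjusted p = 0.67). Cnp and Hapln2 overlapped in neither sex, which follows from their lack of overlap over all mice and is no separate result.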

How the data were processed

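RNA was extracted with Trizol from flash-frozen spinal cords, per the labels' protocols. The submitters' processing notes name kallisto 0.43.0, sleuth 0.28.1 and the build GRCm38; the annotation release was not given in the sources used here. The authors deposited a coverage-like signal, in scaled reads per base after normalization, and, per comparison, an effect on the natural log scale with a p-value and q-value; effects were converted to log2 here. Gene coordinates are from GENCODE M21.

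Values were tested as log2(value + 0.5) with limma 3.58.1 (R 4.3.3), intensity-trended variance, 12 P21 libraries in 1 fit of 3 group means, and Benjamini-Hochberg adjustment at 0.05 over all genes that reached 5 in 4 libraries. P60 was fitted likewise with 3 libraries as the minimum, and differences by age or sex as interaction terms. Scripts were tested on simulated data. The comparison, the 34 gene lists and the named genes were chosen with earlier results of these data known, and 2 further lists (glucocorticoid-responsive and circadian) were written after values had been seen. By rule the named genes were Tardbp, Cnp, every called gene, the 3 members of each list with the smallest unadjusted p, all members of the myelin protein and cholesterol lists, and the 5 smallest p of each interaction; other genes were named after their values were seen. Each mouse is 1 replicate. Alternatives covered the pseudocount, the filter, scaling, the libraries fitted, covariates and left-out libraries. Values of some genes are not reported here.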

Additional observations from a re-analysis of the deposited data

Results flagged for a closer look

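In 90 groups of 4 mice, 7 held 1 mouse far from the other 3 by Dixon's criterion, which chance meets in about 1 group in 20. Mbp was lowest in control 3 (1.3381e+06) and in cHET 3 (1.5354e+06). In cHET 4, Nkx6-2 (3352.2) and Mt1 (16818) were lowest and the mitochondrial percentage (7.5292) was highest. Tyrobp was highest in control 4 (309.21), and the cortical factor Tbr1 was highest in cHET 1 (172.09).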

How the results depend on the processing

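Cnp passed in all 24 alternatives, and no called gene changed sign. Quantile normalization sets Mbp equal in all libraries by construction where it ranks highest. The count of 2 called genes at P21 became 1 without the filter, after quantile normalization, in the fit of all 21 libraries, with sex as a covariate, and without cHET 1 and control 2 together (chosen after seeing the data). It became 15 with array weights, 35 by q in the authors' deposited table, and 30 without control 4, cHET 4 and cKO 4 together (also chosen after seeing the data). Leaving out single mice gave 1 to 26, the 26 without cHET 4. At P60, 3 genes became 14 by the authors' q and 1 to 2 when single mice were left out, with 1 without control 3. The age difference gave 0 to 3 and the sex difference 0 to 12 called genes when single mice were left out. The cause of these changes was not tested. Replicate numbers were given in accession order. No paired analysis was possible because the labels pair no mice across groups. The term shared by control 4, cHET 4 and cKO 4, chosen after seeing the data, kept the count at 2 and moved genes at an unadjusted p under 0.05 from 733 higher and 551 lower to 960 and 875. Depth is unknown, so low genes carry no counting interval.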
